A study of Rattus norvegicus with 4 samples.

Results

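The homeobox gene Hhex, the Groucho-type corepressor genes Tle1, Tle2, Tle3, Tle4 and Tle5 (Tle5 is also called Aes) and the repressor gene Hes1 were examined in surface colonocytes, the absorptive cells that face the lumen of the distal colon. Members were the array rows that carry a single one of these 7 gene symbols, with the row of highest mean where a gene has several. A total of 6 of the 7 genes were measured, each by 1 row, among 13215 genes with a single symbol and 19403 rows in all. Tle2 carried no such row and was not analysed here. The set was chosen by the aldosterone difference of Hhex and Tle4, which an earlier analysis of these arrays had called, and by the mean of each row. The difference of these 2 genes between the groups is therefore given as a description, without a test.

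All 4 animals were Wistar rats, 12 weeks old, whose adrenal glands had been removed 4 days earlier and which drank 0.9% NaCl. In the aldosterone group, 2 rats were given the hormone under the skin at 50 µg/100 g together with a minipump releasing 10 µg/kg per hour. After 2 h their colons were excised and shaken for 40 min in 100 nM aldosterone. In the vehicle group, 2 rats received the carrier by the same routes and their colons were shaken without the hormone. All groups thus lacked adrenal glands, so the comparison sets added aldosterone against hormone depletion rather than against an intact animal. Each rat gave 1 Affymetrix exon array, and values are the authors' log2 expression values per row. Differences are aldosterone minus vehicle. Levels of different rows depend on their probes and are not set against each other.

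Groucho or TLE proteins do not bind DNA themselves. They are brought to genes by sequence-specific repressors, which hold short peptide motifs for them, and they recruit histone deacetylases there. Hhex is one such homeodomain repressor, known from the early liver, thyroid, endothelium and blood. Hes1, the basic helix-loop-helix repressor induced by Notch, is another, and in the gut it favours the absorptive over the secretory fate. In Wnt signalling, TLE proteins hold TCF/LEF factors in a repressing state until beta-catenin displaces them. Tle5 is a short relative that lacks the WD40 repeats of the full-length proteins and can counteract them.

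The sequences around the transcription starts of Hhex, Tle4 and Hes1 are shown, for Hhex and Tle4 because they lay higher in both aldosterone rats, and for Hes1 as the Notch target of the set. Each is 300 bases, 250 before to 50 after the start of the gene, from RefSeq on the rat build GRCr8, written 5′ to 3′ in the direction of the gene. Hhex is at chr1:244602695-244602994 on the plus strand and Tle4 at chr1:221222777-221223076 on the minus strand. Hes1 is at chr11:84212996-84213295 on the minus strand. Capitals mark the CCAAT box, on either strand, in Hhex and Tle4, and the site of the Notch effector RBPJ (GTGGGAA) in Hes1.
Hhex: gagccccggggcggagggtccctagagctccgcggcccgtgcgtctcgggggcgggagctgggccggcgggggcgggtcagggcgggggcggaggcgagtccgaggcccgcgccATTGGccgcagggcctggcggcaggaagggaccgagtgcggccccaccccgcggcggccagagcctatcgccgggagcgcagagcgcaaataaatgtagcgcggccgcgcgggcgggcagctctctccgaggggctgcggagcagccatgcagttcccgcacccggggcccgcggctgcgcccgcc
Tle4: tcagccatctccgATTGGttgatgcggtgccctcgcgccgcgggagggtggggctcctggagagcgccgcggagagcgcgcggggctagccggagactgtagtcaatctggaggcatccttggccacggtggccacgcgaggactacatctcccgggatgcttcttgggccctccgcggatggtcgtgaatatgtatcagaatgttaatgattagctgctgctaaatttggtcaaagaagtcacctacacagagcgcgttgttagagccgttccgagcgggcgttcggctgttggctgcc
Hes1: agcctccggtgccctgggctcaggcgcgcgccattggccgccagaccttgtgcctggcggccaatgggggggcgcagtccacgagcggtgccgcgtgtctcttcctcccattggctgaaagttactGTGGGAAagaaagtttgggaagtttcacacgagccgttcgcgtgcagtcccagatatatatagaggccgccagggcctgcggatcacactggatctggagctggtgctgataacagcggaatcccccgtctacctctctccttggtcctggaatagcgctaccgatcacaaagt
The letters CCAAT, searched on both strands, were found once in the Hhex window, once in the Tle4 window and 3 times in the Hes1 window. They were absent from the windows of Tle1, Tle2, Tle3 and Tle5, and 37.5% of the 33469 promoter windows in the table hold them. The full palindrome of the glucocorticoid response element, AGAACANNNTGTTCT, which corticosteroid receptors bind, was in none of the 7 members' windows and in 0.0149% of all windows. Its hexamer AGAACA was in the Tle2 window alone among the members, against 20.7% of all windows. The RBPJ letters were in the Hes1 window alone among the 7, against 6.29% of all windows. The N-box CACNAG, to which HES repressors bind, occurred 4 times in the Hes1 window and 3 times in that of Tle2, against 43.1% of windows with at least 1 match. The TCF/LEF core CTTTGA occurred once, in Tle4, against 16.1% of all windows. G and C made up 79.0% of the Hhex window, 60.7% of the Tle4 window and 60.3% of the Hes1 window, with a median of 51.7% over all windows. Matches are letters only, and no match says nothing of sequence outside these windows.

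Tle4, which encodes a full-length Groucho corepressor (row 7060701), stood at 9.34 and 8.75 in the aldosterone rats, against 6.81 and 6.71 in the vehicle rats. The lowest aldosterone value lay 1.93 above the highest vehicle value, while rats of 1 group differed by 0.59 with aldosterone and by 0.11 with vehicle. The means were 9.04 ± 0.42 with aldosterone and 6.76 ± 0.077 with vehicle (SD, n = 2 each), a difference of 2.28 on the log2 scale or 4.86-fold. In RNA of a whole cell preparation, more cells of a type and more RNA per cell cannot be told apart. RefSeq also lists a Tle4 pseudogene, Tle4-ps1, and how far its sequence adds to this row is not known here.

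Hhex (row 7041667) stood at 4.36 and 4.01 in the aldosterone rats, against 2.30 and 2.23 in the vehicle rats. In vehicle rats it was thus close to the median of all row means, 2.35, which lies near the floor of the arrays. No fold is given, because a level at the floor may lie anywhere below it. The mean was 4.18 ± 0.25 with aldosterone and 2.27 ± 0.049 with vehicle (SD, n = 2 each). The measured difference of 1.91 on the log2 scale may therefore understate the change. The measured gap between the groups was 1.70, against 0.35 between the aldosterone rats and 0.069 between the vehicle rats.

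**Figure D1:**
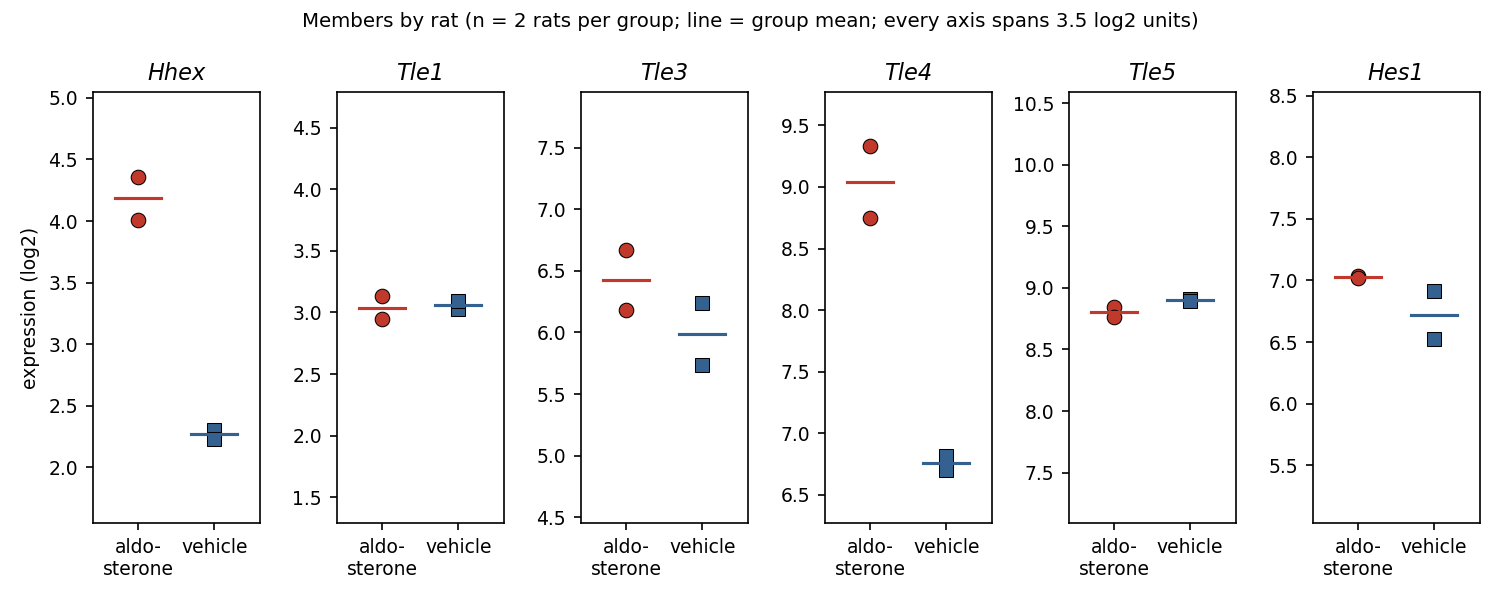
Log2 expression of the 6 measured members in each rat, with aldosterone at the left of each panel (circles) and vehicle at the right (squares), n = 2 rats per group. Lines are group means and every panel spans the same number of log2 units. Tle4 and Hhex show the wide gaps, Hes1 and Tle5 narrow ones that close when arrays are centred on their medians, and the groups of Tle1 and Tle3 overlap.

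The 3 other measured TLE genes did not pass the test, in which 0 of all 19403 rows passed. Not passing therefore does not set them apart. Tle3, another full-length corepressor (row 7336978), stood at 6.67 and 6.18 with aldosterone, against 6.24 and 5.73 with vehicle. These groups overlap, since the second aldosterone rat lay below the first vehicle rat. Its difference of 0.44 had a 95% interval from -0.28 to 1.16 (limma, adjusted p = 1.00). Tle1, also full-length (row 7287667), stood at 3.13 and 2.95 with aldosterone and at 3.03 and 3.09 with vehicle. The aldosterone rats enclosed the vehicle rats, with a difference of -0.020 and an interval from -0.34 to 0.31 (limma, adjusted p = 1.00). These levels lie not far above the median of all row means, 2.35, where a change may be understated. Tle5, the short family member (row 7321914), stood at 8.85 and 8.77 with aldosterone, against 8.91 and 8.89 with vehicle. Both aldosterone values lay below both vehicle values, by a gap of 0.048 that closed with arrays centred on their medians. The difference of -0.097 had an interval from -0.37 to 0.18 (limma, adjusted p = 1.00). The intervals of all 3 genes ended below 2.28, the difference described for Tle4, which was chosen for it.

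Hes1 (row 7094386) stood at 7.03 and 7.02 in the aldosterone rats, against 6.92 and 6.53 in the vehicle rats. Both aldosterone values lay above the vehicle values, by 0.10, a gap that closed with arrays centred on their medians, and the vehicle rats differed from each other by 0.39. The means were 7.03 ± 0.0090 and 6.72 ± 0.28 (SD, n = 2 each), and the difference of 0.30 had an interval from -0.15 to 0.76 (limma, adjusted p = 1.00).

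Of the 6 measured members, 3 thus had both aldosterone values above both vehicle values, where 16.7% of all rows did, and Hhex and Tle4, which were chosen for that difference, are among them. Tle5 was the 1 member with both values below, as were 11.1% of all rows. With each array centred on its median, the groups of Hes1 and of Tle5 overlapped, those of Hhex and Tle4 did not, and the shares of all rows became 9.61% above and 17.2% below. In limma with a constant prior variance, 0 rows (0%) of 19403 were called at an adjusted p of 0.05, and 879 (4.53%) had an unadjusted p under 0.05. With a prior variance that follows the level, 21 rows (0.108%) passed, and these calls of Hhex and Tle4 are what chose both genes. With 1 array left out of that fit, only the group that kept both rats gave its spread. Calls of Hhex and Tle4 in that fit or its variants are not read as a test, because such a call chose both genes. With 2 rats against 2, an exact permutation test of a single gene cannot go below p = 0.333 (two-sided).

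Known hormone targets are given as a description, because their list was chosen with earlier results of these data known. Sgk1, the kinase that keeps the epithelial sodium channel at the cell surface, stood at 12.54 and 12.52 with aldosterone, against 10.51 and 10.64 with vehicle. Tsc22d3, the gene of GILZ, a leucine zipper protein induced by steroids, stood at 10.39 and 10.44, against 7.93 and 8.20. The 6 genes listed as steroid target controls were Sgk1, Tsc22d3, Fkbp5, Per1, Scnn1g and Zbtb16. All 6 had both aldosterone values above both vehicle values, where 16.7% of all rows did.

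Sgk1 alone of these controls was among the 5 genes whose values over the 4 arrays were most like those of Hhex. No control was among the 5 genes most like Tle4. Likeness was the Euclidean distance between values centred on each gene's own mean, over 5737 other genes with a mean of 3 or more. Hhex itself reached that mean only through its aldosterone rats. Nearest to Hhex was Sgk1 (distance 0.28), followed by the desaturase family gene Fads3 (0.30), the lactoperoxidase gene Lpo (0.35) and Slc12a2 (0.39), which encodes the cotransporter NKCC1. Tle4 came next, at a distance of 0.40. Nearest to Tle4 was Hif3a, a hypoxia-inducible factor gene (distance 0.14), before Fads3 (0.31), the lysosomal channel gene Mcoln2 (0.38), Hhex (0.40) and Klhl42 (0.41). Hhex and Tle4 were thus each among the 5 nearest genes of the other, which reflects the size of the difference that chose both, and the vehicle values of Hhex in these distances are those at the floor. For Hes1 the nearest genes were Etfa, a subunit gene of the electron transfer flavoprotein (distance 0.023), Gdpd1 (0.030), the RNA-binding protein gene Hnrnpl (0.041), Rgp1 (0.055) and the small GTPase gene Rab9a (0.065). All 5 shared with Hes1 a low second vehicle rat. With 4 arrays these distances describe the arrays and carry no test.

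**Figure D2:**
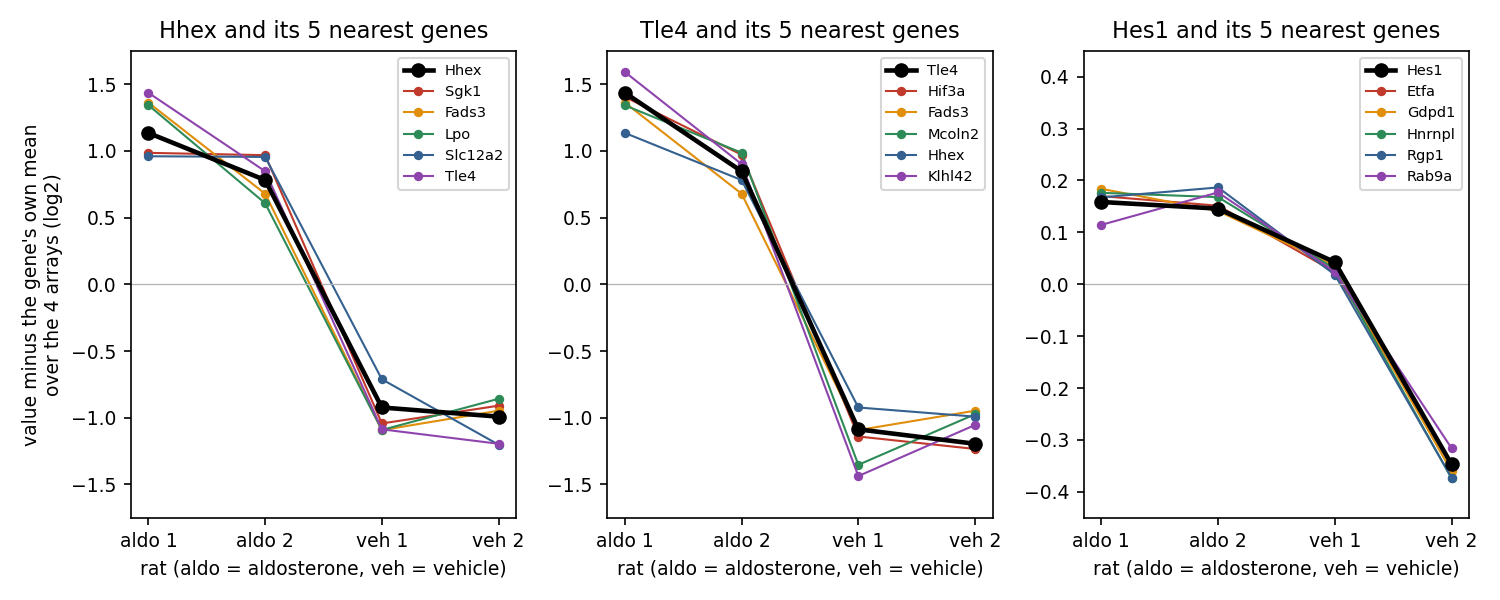
Values of Hhex, Tle4 and Hes1 (black) and of the 5 genes nearest to each (colours), as log2 value minus the gene's own mean over the 4 arrays, with the aldosterone rats left of the vehicle rats. Hhex and Tle4 separate by group with a slightly lower second aldosterone rat, whereas in the Hes1 panel, drawn on a narrower axis, the second vehicle rat is the low one.

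The measured chromosomal neighbours of the members had small differences, most of them at levels near the array floor. The nearest 2 measured genes on each side of each member, 24 genes in all in the RefSeq gene order, had differences from -0.55 to 0.36. In limma with a constant prior 0 of them passed, as did 0 of all 19403 rows. That count therefore does not set them apart. Other genes often lay between, such as 4 between Hhex and Ide and 28 between Tle1 and Cdk5rap2. Hhex and Tle4 lie on chromosome 1. Beside Hhex, Ide, which encodes the insulin-degrading enzyme, stood at 4.57 and 4.56 with aldosterone and 4.36 and 4.04 with vehicle. On the other side, the retinoic acid hydroxylase gene Cyp26a1 stood at 2.13 and 2.22 with aldosterone and 2.02 and 2.22 with vehicle, near the array floor. Beside Tle4, the serine synthesis gene Psat1 stood at 2.38 and 2.62, against 2.14 and 2.23. Psat1 and the other listed neighbours of Tle4 had means below 3 in both groups. Next to Tle5 on chromosome 7, the G protein gene Gna11 stood at 8.89 and 8.68 with aldosterone and 9.57 and 9.11 with vehicle, the lowest difference among the 24. In RefSeq order Tle6, Tle2 and Tle5 follow each other there, and of these Tle5 was analysed here.

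**Figure D3:**
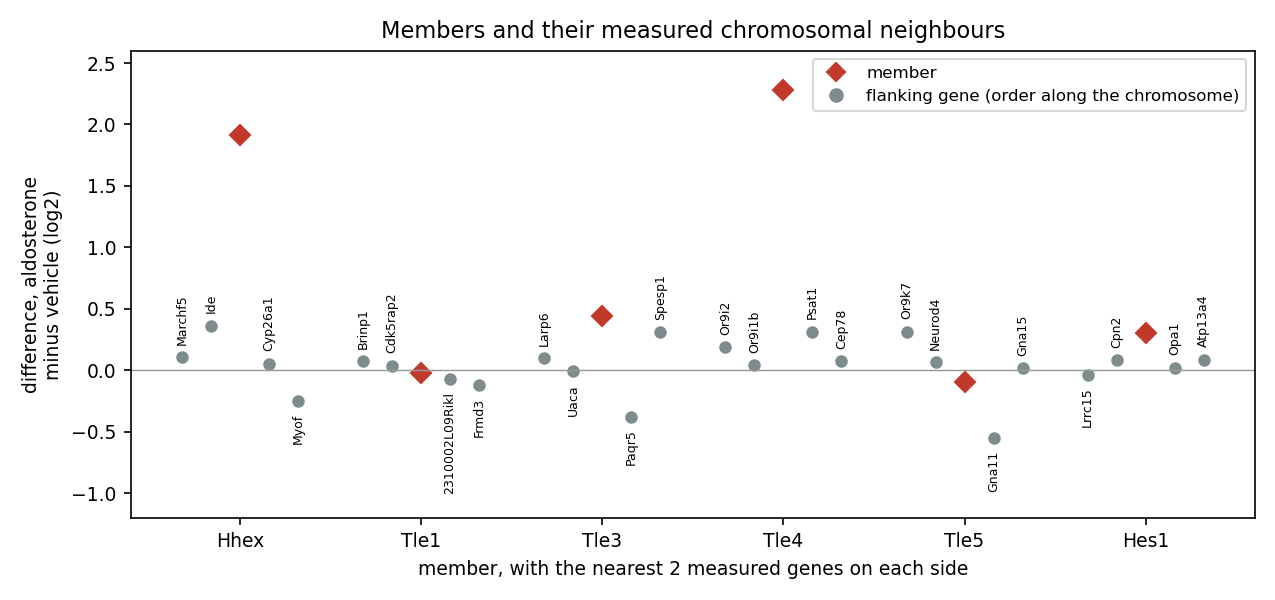
Difference between aldosterone and vehicle (log2) for each member (diamonds) and for the nearest 2 measured genes on either side along its chromosome (grey circles, in chromosomal order, not to distance). The neighbours lie between -0.55 and 0.36, most of them with levels near the array floor. They lie below the diamonds of Hhex and Tle4, which were chosen for their difference.

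Lists of genes around these corepressors were counted in the same fit. They held 122 measured genes besides the members, of which 62 lay higher and 60 lower with aldosterone, where 58.3% of all rows lay higher. Their median difference was 0.0065, against 0.024 over all rows. Both aldosterone values were above both vehicle values in 18 and below in 13, against 16.7% and 11.1% of all rows. With arrays centred on their medians these became 16 and 20, 45 genes lay higher and 77 lower, and 38.6% of all rows lay higher, so that the direction of small differences below depends on the scaling. In limma 0 of the 122 passed with the constant prior, as did 0 of all 19403 rows. An unadjusted p under 0.05 was found for 9, against 4.53% of all rows. With the prior that follows the level 1 passed, Slc12a2, against 0.108% of all rows.

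Among 10 measured HES and HEY repressor genes, 7 lay higher and 3 lower, with a median of 0.082. Hes5, a further Notch-induced repressor gene, stood at 3.53 and 3.52 with aldosterone, against 3.04 and 3.16 with vehicle, and did not pass (limma, adjusted p = 0.876). Hes7, known for the segmentation clock of the embryo, stood at 3.04 and 3.30, against 2.61 and 2.95. Hes6 overlapped, with 4.41 and 4.97 against 4.28 and 4.69. Of the 24 measured Notch pathway genes, 12 lay higher and 12 lower (median 0.00080), with Hes1 counted in both lists. The Notch ligand gene Dll1 stood at 3.61 and 3.80 with aldosterone, against 3.15 and 3.39 with vehicle. The receptor gene Notch3 stood at 3.36 and 3.38, against 3.73 and 3.61. Adam17, which encodes a shedding protease of the pathway, stood at 6.27 and 6.09, against 6.69 and 6.27. Atoh1, the secretory fate gene that Hes1 represses, was picked after its values were seen and stood at 8.27 and 9.74 with aldosterone, against 8.27 and 8.94 with vehicle. Rats of 1 group differed more in Atoh1 than the groups did.

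Factors other than Hhex that recruit TLE proteins gave small differences. Of 14 measured homeobox, forkhead and zinc finger factor genes 11 lay higher and 3 lower, Hhex included, with a median of 0.066. A mean of 3 or more over the 4 arrays was reached by 6 of the 14, by Hhex only through its aldosterone rats. The forkhead genes Foxa1 and Foxa2, which encode factors of gut endoderm, lay lower in aldosterone rats. Foxa1 stood at 5.58 and 5.81, against 5.88 and 6.16, and Foxa2 at 4.78 and 5.33, against 5.41 and 5.39 (limma, adjusted p = 1.00 for both). Gsc, a homeobox gene of the early embryo, overlapped between the groups, at 2.94 ± 0.092 against 2.75 ± 0.21 (SD, n = 2 each). Of 6 measured RUNX and TCF/LEF genes, 4 lay higher and 2 lower (median 0.052). Tcf7l2, the TCF factor typical of intestinal epithelium, stood at 8.76 and 8.09 with aldosterone and 8.19 and 8.37 with vehicle, so that its aldosterone rats enclosed its vehicle rats. Runx1 stood at 6.37 and 6.12, against 6.33 and 6.43, while Lef1 stood at 2.39 and 2.44, against 2.27 and 2.31, and Runx2 at 2.12 and 2.03, against 2.00 and 1.96.

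The machinery through which TLE proteins act showed no common direction. Of 12 measured corepressor and deacetylase genes, 6 lay higher and 6 lower (median -0.039). Tbl1x, a subunit gene of the NCoR complex, stood at 5.31 and 5.25 with aldosterone, against 5.99 and 5.37 with vehicle, and its interval ran from -1.05 to 0.25. Ctbp2, the gene of another class of corepressor, stood at 5.77 and 5.18, against 5.71 and 5.74. Sin3a, a scaffold of deacetylase complexes, stood at 4.54 and 4.85, against 5.14 and 4.57, and the arginine methyltransferase gene Prmt5 at 2.81 and 3.22, against 3.49 and 3.15. Of 7 measured genes for enzymes that modify TLE proteins, 4 lay higher and 3 lower, with a median of 0.17. Hipk1, a homeodomain-interacting protein kinase gene, stood at 8.12 and 7.83, against 7.56 and 7.31 (difference 0.54, interval 0.080 to 0.99, limma adjusted p = 1.00). Csnk2a1, the catalytic subunit gene of casein kinase 2, stood at 7.62 and 7.59, against 7.54 and 6.96. Its regulatory subunit gene Csnk2b stood at 5.33 and 5.67, against 5.88 and 5.67, and the ubiquitin ligase gene Siah1 at 5.41 and 4.48, against 4.69 and 3.61.

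Wnt target and feedback genes divided into 8 higher and 6 lower among 14 measured, with a median of 0.058. Axin2, the feedback inhibitor most used as a readout of TCF activity, stood at 3.51 and 3.20 with aldosterone, against 2.72 and 2.72 with vehicle (difference 0.64, interval 0.24 to 1.04, limma adjusted p = 0.853). Ascl2, a stem cell factor gene, stood at 2.82 and 2.75, against 2.25 and 2.54, and Ephb3, an ephrin receptor gene of the crypt base, at 3.39 and 3.07, against 3.93 and 3.49. Slc12a2, counted here as a gene of the crypt base, stood at 6.33 in both aldosterone rats, against 4.66 and 4.17 in the vehicle rats. Its adjusted p was 0.438 in limma with the constant prior and 0.049 with the prior that follows the level. Of 12 measured beta-catenin pathway components, 2 lay higher and 10 lower, with a median of -0.12 and 0 passing. Lrp5, a Wnt co-receptor gene, stood at 7.38 and 7.02, against 7.56 and 7.44, and Dvl1, a transducer gene, at 4.30 and 4.40, against 4.53 and 4.64. Wls, the Wnt secretion factor gene, was 1 of the 2 that lay higher, at 4.12 and 3.84 against 3.87 and 3.42, and Bcl9, a beta-catenin cofactor gene, stood at 3.12 and 2.92 against 3.72 and 3.10.

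Partners of Hhex in the endoderm and genes tied to it elsewhere were also read. Of 13 measured endoderm and gut transcription factor genes, 4 lay higher and 9 lower (median -0.021). The bile acid receptor gene Nr1h4 stood at 6.58 and 6.37 with aldosterone, against 5.20 and 5.13 with vehicle, a difference of 1.31 that did not pass (limma, adjusted p = 0.422). Nr5a2, which encodes the nuclear receptor LRH-1, stood at 6.51 and 6.72, against 6.30 and 6.03. Foxa3 stood at 3.05 and 4.00, against 4.29 and 4.03. Of 16 measured genes tied to Hhex in other tissues, 8 lay higher and 8 lower, with a median of 0.0019. Vegfa, the vascular growth factor gene, stood at 8.68 and 7.67, against 7.77 and 7.16, and the cyclin gene Ccnd2 at 8.51 and 9.06, against 9.05 and 9.64. Groups of both genes overlap. The iodide transporter gene Slc5a5 stood at 3.04 and 3.22, against 3.45 and 3.43, and Eif4e, a translation initiation factor gene, at 4.85 and 5.03, against 6.39 and 4.95.

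**Figure D4:**
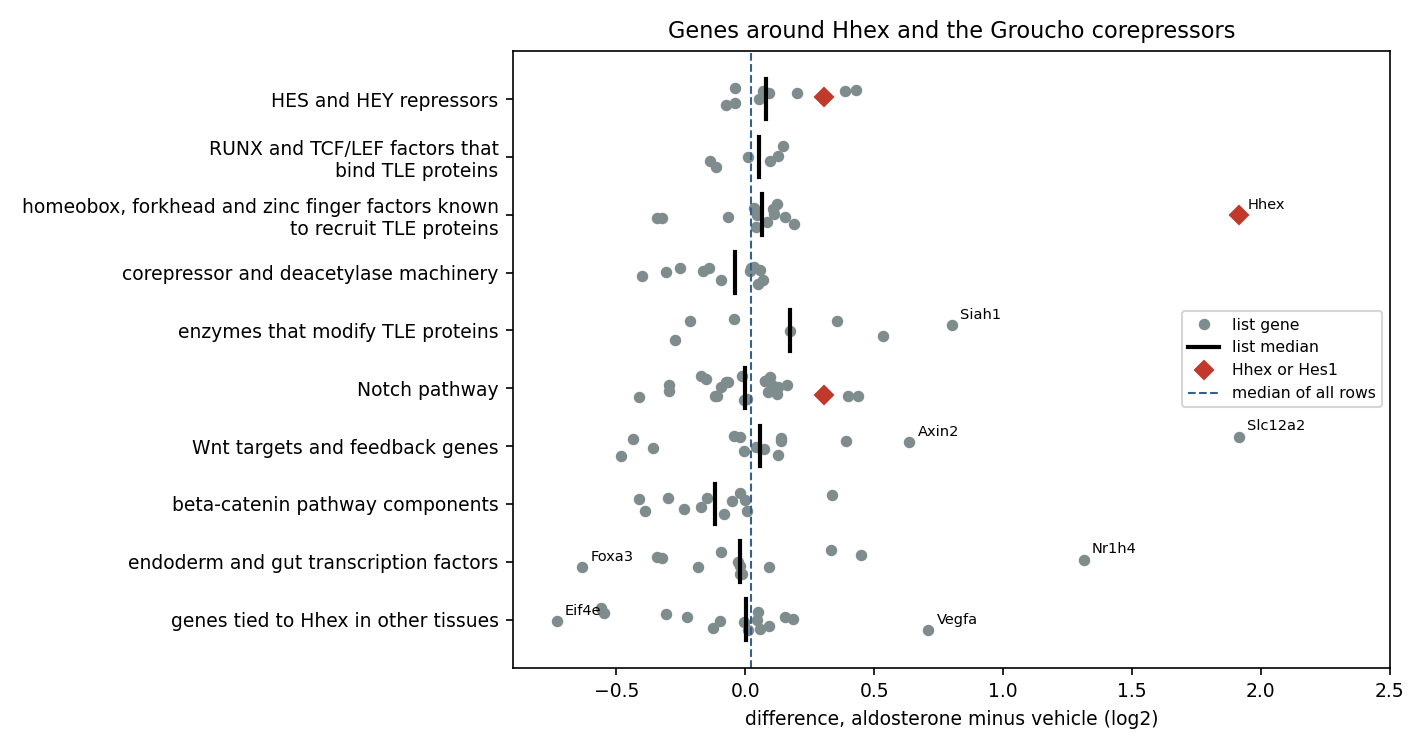
Difference between aldosterone and vehicle (log2) of each measured gene in 10 lists around the corepressors, with the list median as a black bar and the median of all rows as a dashed line. Red diamonds are members, and genes beyond 0.6 in either direction are named. List medians lie between -0.12 and 0.17, while Hhex, Slc12a2 and Nr1h4 stand to the right.

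Marker genes bear on which cells carried the RNA. The 7 measured markers of surface colonocytes averaged 11.01 and 11.18 with aldosterone, against 10.75 and 11.06 with vehicle, and Slc26a3, their chloride exchanger, stood at 12.75 and 12.61, against 11.96 and 12.30. Endothelium, where Hhex is also known, was represented by 4 of 7 markers, which averaged 2.12 and 2.25 with aldosterone and 2.06 and 2.24 with vehicle, all with a mean below 3. Enteroendocrine markers, 7 of 7 measured, averaged 2.31 and 2.32, against 2.14 and 2.37, and again all had a mean below 3. Of 6 B cell markers 2 were measured, with Ms4a1 at 1.83 and 2.02, against 2.03 and 1.80, and Cd79b at 2.98 and 3.82, against 2.95 and 2.86. The 3 measured T cell markers averaged 1.94 and 2.12, against 2.07 and 1.95, and the 6 macrophage markers 2.69 and 2.80, against 2.72 and 2.81. Among the macrophage markers Mrc1 stood at 4.01 and 3.53, against 4.55 and 4.73, and Lyz2 at 3.52 and 4.19, against 3.60 and 3.12. Crypt and cycling markers, 7 of 8 measured, averaged 2.69 and 2.48, against 2.41 and 2.48. Tuft cell markers (3 of 4 measured) averaged 3.30 and 3.23, against 3.07 and 3.16, and stromal and muscle markers (4 of 6) 2.66 and 2.89, against 2.65 and 2.89. Goblet cell markers, 4 of 7 measured, averaged 6.36 and 7.46, against 6.48 and 6.24, and they differed in direction. Zg16 stood at 6.39 and 8.06, against 5.14 and 4.45, Tff3 at 9.44 and 11.30, against 11.12 and 10.74, Agr2 at 7.69 and 8.52, against 7.89 and 7.91, and Spink4 at 1.91 and 1.96, against 1.77 and 1.86. The part of goblet cells and macrophages in the differences of the members was not tested.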

How the data were processed

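The deposited log2 values, 1 for each transcript cluster (row) and array, were used as they stand. The submitters' processing notes name RMA, Partek and the Affymetrix Expression Console. Tool versions and order, the genome build and detection calls are not given there, and the log2 scale was read from the range of the values. Rows were named through the platform annotation, with Entrez IDs checked against RefSeq genes of GRCr8: 13327 rows had 1 symbol, 620 several and 5456 none here. Aldosterone was compared with vehicle in limma 3.58.1 (R 4.3.3, lmFit and eBayes, constant prior variance, treatment as the only term, two-sided), with Benjamini-Hochberg adjustment across all 19403 rows and a threshold of 0.05. Intervals are 95% intervals of that fit. The fit was tested on simulated data. The members and lists were chosen with earlier results of these data known. Named from each list were up to 4 genes with the smallest unadjusted p. Alternatives were other scalings, filters on low rows, priors, a replicate block and leaving out arrays. The number of arrays limits the precision. Tables were made with Python 3.11.15 and pandas 2.3.3.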

Additional observations from a re-analysis of the deposited data

How the results depend on the processing

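Over the alternatives run, the measured difference of Hhex, whose vehicle values lay near the floor, was between 1.74 and 2.09. That of Tle4 was between 1.99 and 2.58, and the extremes of both came from leaving out single arrays. Tle3 lay between 0.19 and 0.69, Hes1 between 0.11 and 0.50 and Tle5 between -0.15 and -0.058, none of them passing under any alternative (lowest adjusted p = 0.641). Tle1 turned to 0.075 without aldosterone replicate 2 and to 0.013 without vehicle replicate 2, within a range from -0.11 to 0.075 when single arrays were left out. The number of rows called by limma was 0 with the constant prior, with or without any single array, and 21 with a prior following the level. It was 1 when only rows at or above the median, or at a mean of 3 or more, were kept. The level-following prior called 137 rows without aldosterone replicate 1, 142 without aldosterone replicate 2, 7 without vehicle replicate 1 and 8 without vehicle replicate 2. The list genes called numbered 1 with the level-following prior, and 0 to 1 when an array was left out as well. The median of the Wnt target list ran from -0.044 to 0.14 over its alternatives, and that of the genes tied to Hhex reached -0.31 among rows with a mean of 3 or more. With the replicate number as a block, 0 of 19403 rows passed, and 6 of 19403 with the level-following prior. Same-numbered rats deviated together only weakly (correlation 0.15 across rows), and the labels do not say that the numbers pair the animals. The causes of these changes were not tested.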
